A study of Mus musculus with 78 samples.

Results

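The genes described here encode the nuclear subunits of the mitochondrial respiratory chain and ATP synthase, read in kidney RNA of male C57BL/6J mice. They were chosen by symbol, as the Nduf, Uqcr, Sdh, Cox4 to Cox8 and Atp5 families without pseudogenes and without Cox7a1 and Cox8b, and by a mean level of at least 1 CPM (counts per 1000000 counts in genes). Of 24499 genes, 90 matched by symbol and 85 reached that level. They were 35 complex I subunits, 4 of complex II, 8 of complex III, 12 of complex IV and 15 of ATP synthase. The symbols also took in 7 complex I assembly factors (Ndufaf1 to Ndufaf7), 2 genes of the ATP5S family and 2 of the NDUFA4 family. The 5 genes that fell short were Cox6a2 at 0.861 CPM, Cox4i2 at 0.395 CPM, Ndufs5 at 0.0281 CPM, Cox7b2 at 0.00665 CPM and Cox8c at 0. Just above the limit stood Ndufa4l2 at 2.15 CPM and Cox6b2 at 5.34 CPM. All 85 genes passed the filter on low counts in every fit. Genes encoded by mitochondrial DNA were not analysed here.

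Complex I takes electrons from NADH and complex II takes them from succinate. Complex III passes them to cytochrome c and complex IV to oxygen, and the protons pumped on the way return through ATP synthase, which forms ATP. The proximal tubule depends on this pathway to power reabsorption and burns mainly fatty acids. Most subunits are made from nuclear genes and imported, and complex IV has tissue isoforms for several of its small subunits.

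For 8 weeks the mice ate LFD (low-fat diet, 4% fat), HFD (high-fat diet, 31% fat) or MCD, a diet lacking methionine, choline and folate. The solvent tetrachloroethylene (PERC) was given at 300 mg/kg, either once with death after 24 h or on 5 days with death 4 h after the last dose, and control mice had the vehicle of 5% Alkamuls-EL620 in saline. The study's title asks how fatty liver and steatohepatitis bear on the effects of PERC on the kidney. When the single-regimen vehicle mice died is not given in the sources used here. The single regimen set 4 PERC libraries against 5 vehicle libraries in LFD mice, 5 against 4 in HFD mice and 4 against 3 in MCD mice. The regimen of 5 doses set 9 PERC libraries against 7 vehicle libraries in LFD mice, 8 against 8 in HFD mice and 8 against 7 in MCD mice, where the series description plans 8 of each per diet. Libraries held 9047579 to 42022166 counts in genes after 1 dose and 8556278 to 28508827 after 5 doses. No label states that libraries came from separate animals, and the p-values cover only library-to-library spread, which may be technical. All 12 proximal tubule markers were detected in each of the 12 groups, with a summed level of 14260 to 47490 CPM over the libraries. Replicate numbers used here follow the order of the libraries in the series within each group, since the labels give none. One library stood apart from its label. In replicate 4 of the LFD PERC group after 5 doses, Cyp4a14, a fatty acid hydroxylase gene, was at 120.8 CPM and the tubule injury marker Havcr1 at 1.82 CPM. The other 8 libraries of that group had 911 to 7610 CPM of Cyp4a14 and a median of 61.7 CPM of Havcr1, and the LFD vehicle libraries had 57.01 to 180.0 CPM and 1.76 to 2.71 CPM. Both values of replicate 4 lie within the vehicle range. It is kept under its label, and the LFD results after 5 doses are given with and without it. In whole pulverised kidney, fewer cells of a type and less RNA per cell cannot be told apart.

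Upstream sequence is shown for 4 genes: Cox6b2, Ndufb8 and Atp5h carry results given below, and Cox6b1 is the main-isoform partner of Cox6b2. Each run is the 250 bases before the RefSeq gene start on GRCm38.p6, read 5′ to 3′ on the gene's own strand. Capitals mark matches, on either strand, to the letters GCGCNTGCG (for NRF1), CCGGAAG (for ETS factors) or CCAAT, and no 2 matches shown overlap. The positions are chr7:4753095-4753344 for Cox6b2, chr7:30626115-30626364 for Cox6b1, chr19:44555443-44555692 for Ndufb8 and chr11:115419920-115420169 for Atp5h, all on the minus strand.
Cox6b2: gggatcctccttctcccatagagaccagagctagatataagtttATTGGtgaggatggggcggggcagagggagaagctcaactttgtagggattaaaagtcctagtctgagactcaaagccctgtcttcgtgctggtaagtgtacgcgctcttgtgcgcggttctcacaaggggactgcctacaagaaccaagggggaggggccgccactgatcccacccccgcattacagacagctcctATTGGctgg
Cox6b1: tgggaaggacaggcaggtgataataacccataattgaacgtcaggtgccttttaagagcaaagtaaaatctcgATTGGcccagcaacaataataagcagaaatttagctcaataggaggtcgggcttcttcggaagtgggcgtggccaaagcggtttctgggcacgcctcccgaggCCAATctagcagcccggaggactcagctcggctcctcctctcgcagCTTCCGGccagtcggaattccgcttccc
Ndufb8: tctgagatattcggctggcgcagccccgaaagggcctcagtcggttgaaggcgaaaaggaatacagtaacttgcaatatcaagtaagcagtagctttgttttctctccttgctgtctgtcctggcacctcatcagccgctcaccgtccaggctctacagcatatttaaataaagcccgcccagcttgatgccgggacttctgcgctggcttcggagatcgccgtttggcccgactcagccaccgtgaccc
Atp5h: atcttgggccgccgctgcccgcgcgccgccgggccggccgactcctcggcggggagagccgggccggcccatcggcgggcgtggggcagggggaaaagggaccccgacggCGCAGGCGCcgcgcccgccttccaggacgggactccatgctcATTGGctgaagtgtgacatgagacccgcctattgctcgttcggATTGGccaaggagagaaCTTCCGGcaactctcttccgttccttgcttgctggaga

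Cox6b2 had 2 CCAAT matches, and Cox6b1 had 2 CCAAT matches and 1 ETS match. Atp5h had NRF1, ETS and 2 CCAAT matches, and the Ndufb8 window held none of these letters. RefSeq windows were found for 69 of the 85 genes. Among these 69 the NRF1 letters occurred in 16 (23.2%), against 5.19% of 32851 promoters of the same length, and the ETS letters in 13 (18.8%), against 6.91%. CCAAT occurred in 30 of the 69 (43.5%), against 33.8% of all promoters. The letters TGATGNAA, for ATF4, were in none of the 69 windows, against 3.45% of all promoters. YY1 letters (AAGATGGC) and ERR letters (TCAAGGTCA) were each in 1 window, or 1.45%, against 1.56% and 0.387%. The windows had a median GC content of 57.6%, against 52.4% over all promoters, and GC-rich letters are not independent of this.

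Per kilobase of exon, complex II genes had the highest median level, 195 CPM per kb, followed by complex IV at 154, complex III at 145.8, ATP synthase at 95.5 and complex I at 75.4 CPM per kb. The assembly factors were lower, with a median of 12.1 CPM per kb. Atp5a1 and Atp5b, which encode the subunits of the catalytic head of ATP synthase, led with 803 and 770 CPM per kb. In the COX6B pair the ubiquitous gene dominated, with 381 CPM per kb for Cox6b1 and 4.82 CPM per kb for Cox6b2. Values per kilobase and their ranking depend on the length used. Ndufs1 has 8086 bases of exon, where its median transcript has 651 nt. Atp5o had no length, so the ATP synthase median covers 14 genes. Over the 72 libraries the summed share of these 85 genes in all gene counts ran from 1.69% to 2.43%, with a median of 2.01%. After 5 doses of PERC this share was 2.03% ± 0.113 on LFD, 2.02% ± 0.117 on HFD and 2.06% ± 0.110 on MCD, against 1.96% ± 0.0904, 1.95% ± 0.0525 and 1.97% ± 0.104 in the vehicle groups of the same diets (SD, n as above). The PERC means were higher by less than 1 SD of the PERC libraries, though on HFD by more than 1 SD of the vehicle libraries. These SDs describe single libraries and not the error of a mean. Without LFD PERC replicate 4 the LFD share was 2.03% ± 0.120.

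After 5 doses of PERC a small set of subunit genes was higher and none was lower. The edgeR quasi-likelihood test called 6 of 85 higher on LFD (7.06%), 5 on HFD (5.88%) and 7 on MCD (8.24%), at a Benjamini-Hochberg adjusted p under 0.05 over all genes tested. The share of all tested genes called was 6.91% on LFD, 9.18% on HFD and 5.1% on MCD, and the share called higher was 4.48%, 4.97% and 2.72%. The members' share lay near the background on LFD and HFD. The 7 genes called in any diet (8.24%, where 13.9% of all tested genes were) were Cox6b2 of complex IV, Ndufa5, Ndufb8, Ndufb9 and Ndufb10 of complex I, and Atp5h and Atp5o of ATP synthase. Cox6b2, Ndufb8, Ndufb9 and Atp5o were called in all 3 diets. These 4 are 4.71% of the members, where 1.84% of all 14614 tested genes were called the same way in all 3 diets. They make up 66.7% of the LFD list, 80% of the HFD list and 57.1% of the MCD list. None of the genes of complex II, complex III or the assembly factors was called by edgeR, where 11 members on LFD, 11 on HFD and 20 on MCD had an unadjusted p under 0.05. DESeq2 called 7, 5 and 7 members in the 3 diets, and its share of all genes is not given here or below.

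Without replicate 4 of the LFD PERC group, edgeR called 7 members higher on LFD (8.24%), where 12.3% of all tested genes were called, against 6.91% with it. The 7 were the 6 named above and Uqcrh, the hinge subunit of complex III (log2 0.19, edgeR adjusted p = 0.0470). Cox6b2 in the remaining 8 PERC libraries ran from 4.00 to 15.4 CPM with a median of 6.73, and its log2 fold change was 1.49 ± 0.26 (edgeR adjusted p = 7.23e-05). Replicate 4 itself had 4.35 CPM of Cox6b2, above the highest LFD vehicle library at 3.49 CPM, and all 8 others were above it too, as for 1.88% of all genes. The log2 fold changes of Ndufb9, Ndufb8 and Ndufa5 were 0.21, 0.20 and 0.21 (edgeR adjusted p = 0.00166, 0.0327 and 0.0315), and those of Atp5o and Atp5h were 0.16 and 0.17 (edgeR adjusted p = 0.0284 and 0.0339). Ndufb10 stayed short of the threshold at 0.11 (edgeR adjusted p = 0.213), and the median of the 85 genes was 0.02. Cox6b2, Ndufb8, Ndufb9 and Atp5o were again called in all 3 diets, as 2.78% of all tested genes were, and 8 members were called in any diet (9.41%, where 18.2% of all tested genes were).

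**Figure D1:**
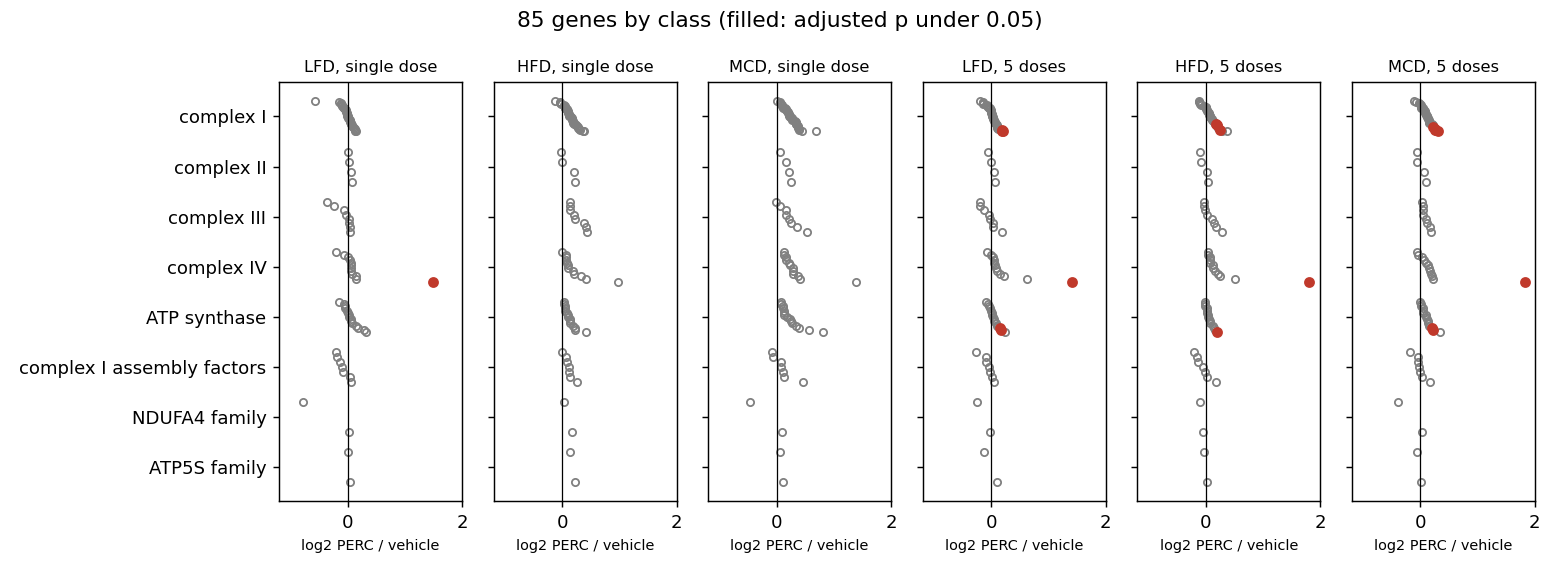
Log2 fold change of PERC over vehicle (x axis) for each of the 85 genes, by class (y axis), in 6 comparisons. Filled points have an edgeR adjusted p under 0.05. The far right filled point of complex IV is Cox6b2, at 1.41, 1.81 and 1.82 in the 5-dose panels, while the other filled points lie between 0.15 and 0.31.

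Cox6b2 differed from the other members called in the size of its change. It encodes the isoform of subunit COX6B that is known from testis, and lies at chr7:4751792-4753094 on the minus strand of GRCm38. On LFD its level after 5 PERC doses ran from 4.00 to 15.4 CPM with a median of 6.66, against 2.33 to 3.49 CPM with a median of 3.10 in vehicle libraries. All 9 PERC libraries were above all 7 vehicle libraries, as for 0.277% of all tested genes in either direction. Its log2 fold change was 1.41 ± 0.26 (SE), or 2.66-fold, with an edgeR adjusted p of 0.000332. On HFD the PERC libraries ran from 5.00 to 15.4 CPM with a median of 7.16, against 1.74 to 2.91 CPM with a median of 2.54 for vehicle. Again the groups did not overlap, as for 2.11% of all genes, and the log2 fold change was 1.81 ± 0.26, or 3.51-fold (edgeR adjusted p = 2.97e-06). On MCD the PERC libraries ran from 3.81 to 17.1 CPM with a median of 11.5, against 1.92 to 3.93 CPM with a median of 3.18 for vehicle. There 7 of 8 PERC libraries lay above all vehicle libraries, and replicate 1, at 3.81 CPM, lay below the highest of them. The log2 fold change on MCD was 1.82 ± 0.26, or 3.54-fold (edgeR adjusted p = 5.61e-06).

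The higher Cox6b2 level recurred across lanes. Libraries were spread over sequencing lanes, as numbered in the deposited file names, and the mean of PERC libraries was above that of vehicle libraries in 5 of 5 lanes in each diet. The call held in all 7 other settings and on leaving out any 1 library in each diet after 5 doses. By p, Cox6b2 was gene 77 on LFD, 43 on HFD and 29 on MCD of 14614 tested genes. Counts behind these values were low, from 82 to 325 per PERC library and from 19 to 56 per vehicle library on HFD. No annotated gene overlaps Cox6b2. Its neighbour Suv420h2, a histone methyltransferase gene, had 23.03 to 32.7 CPM in HFD PERC libraries and 20.1 to 30.02 CPM in HFD vehicle libraries. The other neighbour, Fam71e2, had 0 counts in both of these groups.

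Cox6b1, the isoform gene used in most tissues, did not pass the test in any diet. Its level was 258 ± 20.5 CPM on LFD, 274 ± 26.2 on HFD and 281 ± 29.96 on MCD after 5 PERC doses, against 251 ± 22.1, 257 ± 21.9 and 261 ± 27.01 CPM in the vehicle groups (SD). Its log2 fold changes were 0.02, 0.06 and 0.10, and on LFD without replicate 4 the value was 0.0037 at a PERC level of 255 ± 20.1 CPM. Per length, Cox6b2 made up 1.91% ± 0.996 of the 2 transcripts on LFD, 2.04% ± 0.946 on HFD and 2.47% ± 1.05 on MCD with PERC. Without LFD replicate 4 the LFD value was 2.03% ± 0.997. With vehicle it made up 0.731% ± 0.125, 0.599% ± 0.104 and 0.746% ± 0.156. The highest value in any library was 4.04%, in the MCD PERC group. These shares rest on exon lengths of 1108 bases for Cox6b2 and 708 for Cox6b1, where the median transcripts have 435 and 486 nt.

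**Figure D2:**
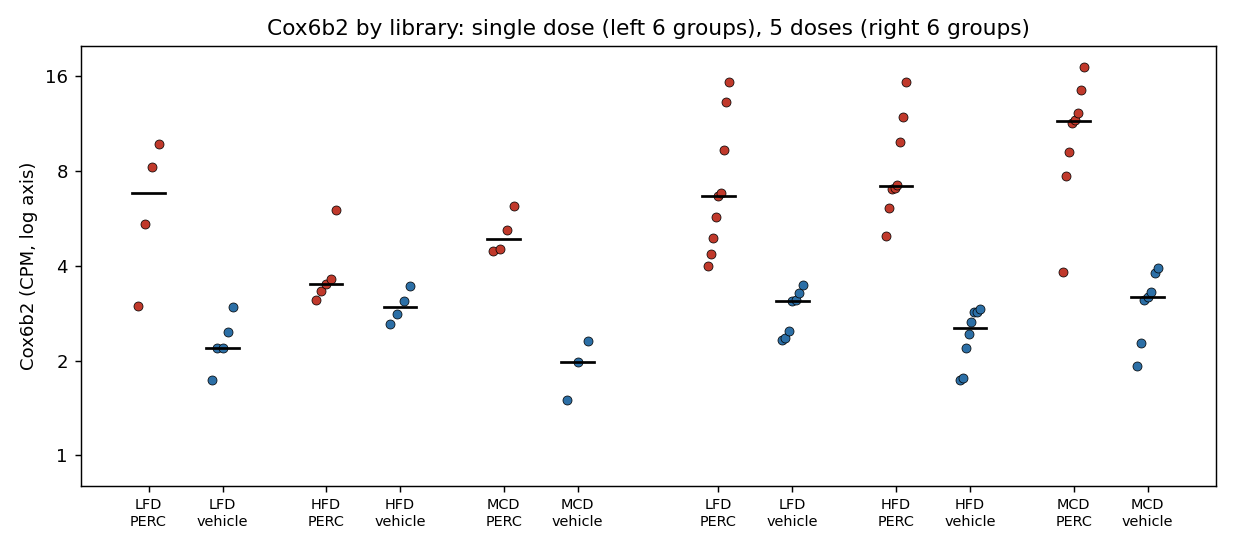
Cox6b2 level in CPM (y axis, log scale) in each library of the 12 groups (x axis), with the group median as a bar. PERC and vehicle libraries do not overlap on LFD and HFD after 5 doses, and 1 MCD PERC library sits at 3.81 CPM, within the range of its vehicle libraries.

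In the single regimen, Cox6b2 was the 1 member called on LFD (1.18%), where 0.749% of all tested genes were called and 0.532% were called higher. LFD PERC libraries had 2.98, 5.42, 8.22 and 9.79 CPM, against 1.74, 2.19, 2.20, 2.47 and 2.95 CPM in LFD vehicle libraries. The groups did not overlap, as for 2.32% of all genes, though the lowest PERC library was close to the highest vehicle library. The log2 fold change was 1.49 ± 0.26, or 2.81-fold (edgeR adjusted p = 0.00539). The call was lost without PERC replicate 4 (edgeR adjusted p = 0.0581) and when the fit held only these groups (edgeR adjusted p = 0.284).

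On MCD a single dose gave 4.46, 4.53, 5.19 and 6.19 CPM of Cox6b2 with PERC, against 1.503, 1.98 and 2.31 CPM with vehicle. These groups did not overlap either, as for 6.11% of all genes. The log2 fold change of 1.38 ± 0.31 missed the threshold in edgeR (adjusted p = 0.147) and passed it in DESeq2. On HFD the PERC libraries had 3.13, 3.33, 3.49, 3.63 and 6.01 CPM, against 2.62, 2.81, 3.10 and 3.45 CPM with vehicle. The groups overlapped, and the log2 fold change was 0.42 ± 0.26 (edgeR adjusted p = 0.9998). The PERC effect on HFD minus that on LFD was -1.07 ± 0.37 on the log2 scale after a single dose (edgeR adjusted p = 0.760). The effect of 5 doses minus that of a single dose on HFD was 1.38 ± 0.41 (edgeR adjusted p = 0.149). Neither difference passed the adjustment over all genes, so no difference of the Cox6b2 response between diets or regimens was called.

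The other 6 genes called after 5 doses changed by a small fraction of their level. Ndufb9, an accessory subunit at the far end of the membrane arm of complex I, was called in all 3 diets. On LFD its libraries ran from 213 to 282 CPM with a median of 253 with PERC, against 198 to 236 CPM with a median of 217 with vehicle. On HFD they ran from 225 to 270.1 CPM (median 251) with PERC, against 202 to 230.2 CPM (median 218) with vehicle. On MCD they ran from 231 to 289 CPM (median 256) with PERC, against 199 to 233 CPM (median 213) with vehicle. The ranges overlapped in each diet. The log2 fold changes were 0.19 ± 0.047, 0.18 ± 0.047 and 0.25 ± 0.048 (edgeR adjusted p = 0.00991, 0.00741 and 0.000634), or 13.8%, 13.5% and 18.7% higher. On leaving out any 1 library, Ndufb9 stayed called in each diet.

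Ndufb8, another accessory subunit of the membrane arm, had the largest of these changes. MCD PERC libraries ran from 239 to 322 CPM (median 273), against 191 to 237 CPM (median 226) in MCD vehicle libraries. These groups did not overlap, as for 1.7% of all genes. Its log2 fold change on MCD was 0.31 ± 0.062, or 24.0% (edgeR adjusted p = 0.00102). On HFD its libraries ran from 246 to 319.6 CPM (median 262) with PERC, against 202 to 253 CPM (median 217) with vehicle, and on LFD from 183 to 270 CPM (median 243) with PERC, against 189 to 227 CPM (median 207) with vehicle. In both diets the ranges overlapped. The log2 fold changes were 0.25 ± 0.060 on HFD (edgeR adjusted p = 0.00517) and 0.19 ± 0.061 on LFD (edgeR adjusted p = 0.0412). A predicted gene, Gm20538, overlaps Ndufb8 on the same strand, and another, Gm49356, overlaps Ndufb9, so how reads were divided between them is uncertain.

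Ndufb10, also of the membrane arm, ran from 124.7 to 138.1 CPM (median 134) in HFD PERC libraries, against 104 to 122 CPM (median 113) in HFD vehicle libraries. All 8 PERC libraries were above all 8 vehicle libraries, where 2.11% of all genes did not overlap in either direction. On MCD the range was 121 to 174 CPM (median 134) with PERC, against 93.9 to 125.6 CPM (median 113) with vehicle, and these overlapped. The log2 fold changes were 0.19 ± 0.054 on HFD and 0.25 ± 0.056 on MCD (edgeR adjusted p = 0.0157 and 0.00270). On LFD the value was 0.10 ± 0.054, which did not pass (edgeR adjusted p = 0.302). Ndufa5, an accessory subunit of the matrix arm, ran from 85.4 to 113 CPM (median 89.5) with PERC on LFD, against 71.3 to 85.5 CPM (median 81.3) with vehicle. There 8 of 9 PERC libraries lay above all vehicle libraries. Its log2 fold changes were 0.21 ± 0.065 on LFD and 0.22 ± 0.066 on MCD (edgeR adjusted p = 0.0416 and 0.0377), and on HFD it was 0.17 ± 0.064 (edgeR adjusted p = 0.0924).

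Of the 15 ATP synthase genes, Atp5o and Atp5h were called. Both encode subunits of the stalk that holds the catalytic head in place, as do Atp5f1 and Atp5j, which were not called in any diet (edgeR adjusted p of 0.474 to 0.956). Atp5o encodes the subunit known as OSCP at the top of this stalk. Its libraries ran from 302 to 369 CPM (median 324) with PERC, against 279 to 306 CPM (median 298) with vehicle on LFD. On HFD they ran from 288 to 356 CPM (median 328) with PERC, against 259.8 to 301 CPM (median 275) with vehicle. On MCD they ran from 305 to 375 CPM (median 334) with PERC, against 268 to 312 CPM (median 293) with vehicle. The ranges overlapped in all 3 diets, and the log2 fold changes were 0.15 ± 0.048, 0.19 ± 0.047 and 0.20 ± 0.049 (edgeR adjusted p = 0.0422, 0.00615 and 0.00816). Atp5h encodes subunit d of the stalk. All 9 LFD PERC libraries, at 152 to 193 CPM, were above all 7 LFD vehicle libraries, which reached at most 150.1 CPM. Between these groups 0.277% of all tested genes did not overlap in either direction. The log2 fold changes of Atp5h were 0.17 ± 0.054 on LFD and 0.23 ± 0.055 on MCD (edgeR adjusted p = 0.0470 and 0.00757), while the 0.13 ± 0.053 on HFD did not pass (edgeR adjusted p = 0.117). Its promoter is the one printed above with NRF1, ETS and CCAAT matches.

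**Figure D3:**
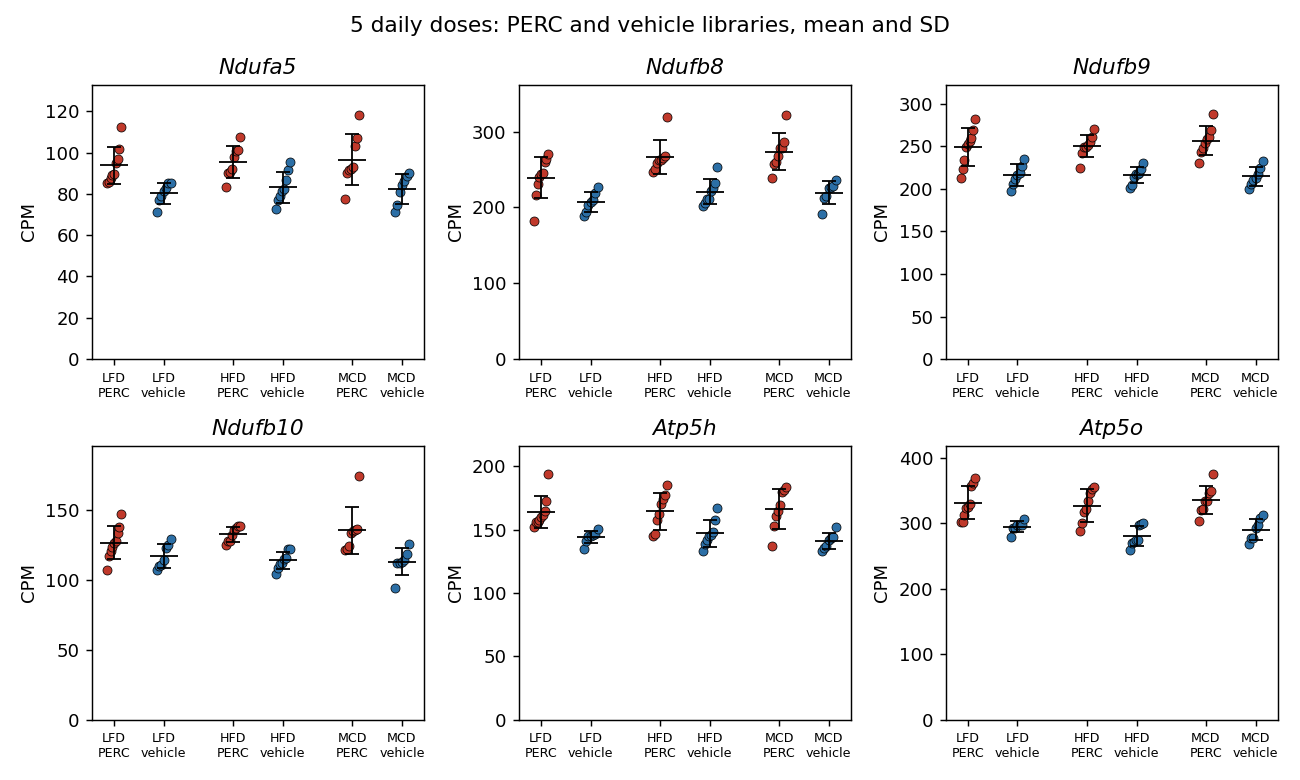
Level in CPM (y axis, from 0) of 6 subunit genes in each library of the 5-dose regimen, by diet and treatment (x axis), with the mean and SD. PERC libraries lie slightly above vehicle libraries, by 7.10% for Ndufb10 on LFD to 24.0% for Ndufb8 on MCD, and the ranges overlap in most panels.

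Each of these 6 genes had a higher lane mean with PERC than with vehicle in 5 of 5 lanes in each of the 3 diets, except Ndufb8 on LFD without replicate 4, with 4 of 5. On HFD the calls of Ndufb8, Ndufb9, Ndufb10 and Atp5o held without any 1 library, and so did those of Ndufb8, Ndufb9, Ndufb10, Atp5h and Atp5o on MCD. On LFD the calls of Ndufa5, Ndufb8, Atp5h and Atp5o were lost on leaving out most single libraries, and leaving out any 1 library gave 2 to 7 calls in all. White and brown adipocyte markers moved with PERC on LFD: 6 of 12 were called higher, and their summed level was 69.9 to 348 CPM (median 112) with PERC, against 57.95 to 89.8 CPM (median 65.6) with vehicle, with no marker at 0 in either group. Without replicate 4 the PERC range was 82.3 to 348 CPM (median 122.9), again with 6 of 12 called higher. With these markers as a covariate, 1 member, Cox6b2, was called on LFD, and 3 were without replicate 4. The share of all genes called with this covariate is not given here, so the drop is not shown to be particular to the members. On HFD and MCD, where none of the 12 was called after PERC, the member counts with this covariate were 5 and 7, as without it. Proximal tubule markers were lower in all 3 diets by their summed medians, at 20830, 31740 and 29850 CPM with PERC, against 37980, 43420 and 43430 CPM with vehicle on LFD, HFD and MCD. Kap, an androgen-regulated gene of the proximal tubule, made up a median of 37.8%, 55.7% and 55.04% of this sum with PERC, against 55.4%, 64.4% and 64.9% with vehicle. Without Kap the summed medians were 13980, 12820 and 13570 CPM with PERC, against 17060, 15570 and 15500 CPM with vehicle. Of the 12 proximal tubule markers, 4, 2 and 1 were called lower, the 1 on MCD being Slc22a8, and Kap was called on LFD but not on HFD or MCD. The same 4 were called on LFD without replicate 4. Of 6 macrophage markers, Csf1r was called lower in each diet (log2 -0.63, -0.39 and -0.58). The summed level of the 6 had a median of 101 CPM on LFD and 111.7 CPM on MCD with PERC, against 134.3 and 148.4 CPM with vehicle, and on HFD it was 92.2 to 146.4 CPM with PERC, against 118.7 to 153.4 CPM with vehicle. None was at 0, and without replicate 4 the LFD PERC median was 99.3 CPM. In that setting Cd68 of the same list was called higher on LFD, with Csf1r lower. Csf1r weighs most in this sum, with a mean of 80.8 CPM, where the next marker, C1qb, had 16.2 CPM. The part of these markers in the subunit results was not tested.

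The bulk of the genes stayed close to their vehicle level. The median log2 fold change of the 85 genes after 5 doses was 0.02 on LFD, 0.05 on HFD and 0.10 on MCD, with 51, 62 and 69 genes above 0, and that of all tested genes was 0.00, 0.00 and 0.01. Single libraries moved these medians: they ran from 0.00 (-0.0037 without vehicle replicate 3) to 0.05 (without vehicle replicate 1) on LFD, from 0.01 (without PERC replicate 5) to 0.09 (without PERC replicate 6) on HFD and from 0.06 (without vehicle replicate 8) to 0.14 (without vehicle replicate 6) on MCD. The median SE of a member was 0.0860, 0.0857 and 0.0887. By class, complex IV had medians of 0.07, 0.12 and 0.14 and complex I had 0.01, 0.07 and 0.11. Complex II had 0.03, -0.04 and 0.00, and the complex I assembly factors had -0.03, -0.05 and -0.03. The catalytic Atp5b lay between -0.02 and 0.04, the flavoprotein subunit Sdha of complex II between -0.09 and 0.05, and Ndufs1, which carries iron-sulfur clusters of complex I, between -0.11 and -0.01. Cox4i1, a regulatory subunit of complex IV, had 0.06, 0.22 and 0.22 (edgeR adjusted p over 0.05 in each diet). Uqcrh of complex III had 0.19, 0.11 and 0.19, with edgeR adjusted p of 0.0630, 0.293 and 0.0813.

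After a single dose the members leaned upward on HFD and MCD without calls. On HFD the median log2 fold change was 0.13 with 78 of 85 genes above 0, and on MCD it was 0.21 with 80 of 85 above 0, while the median of all tested genes was 0.01 and -0.01. EdgeR called none of the 85 on HFD, where 0.007% of all tested genes were called, and none on MCD, where 0.028% were. At an unadjusted p under 0.05 there were 6 members on HFD and 8 on MCD, and DESeq2 called 0 and 1. On HFD the smallest p values were those of Sdhd, a membrane anchor of complex II (log2 0.20, edgeR adjusted p = 0.9998), Atp5f1 (log2 0.22) and Cox7c (log2 0.97). On MCD Cox6b2 was followed by Atp5g1, a gene of the rotating c ring of ATP synthase (0.82, edgeR adjusted p = 0.585), and Sdhd (0.25, edgeR adjusted p = 0.747). Atp5g1 had 73.7 to 98.2 CPM in MCD PERC libraries, against 29.2 to 67.3 CPM in MCD vehicle libraries. These did not overlap, as for 6.11% of all genes. The members' share of counts was 2.10% to 2.35% in the 4 MCD PERC libraries, against 1.69%, 1.998% and 2.31% in the 3 MCD vehicle libraries. One library moved this result: the MCD median was 0.07 without vehicle replicate 5 and 0.36 without vehicle replicate 3. On HFD the median was 0.05 without PERC replicate 3. The within-group SD of the members' mean log2 CPM, pooled over all groups, was 0.173. The lean was of the size of this pooled spread on MCD and smaller on HFD. The 3 MCD vehicle libraries alone had an SD of 0.447 (6.33 to 7.21), more than the MCD lean, and the 4 MCD PERC libraries had 0.107. Lane 2 held 2 of these 4 PERC libraries and 1 of the 3 vehicle libraries.

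On LFD the median after a single dose was 0.02 with 49 of 85 above 0. The lowest p after Cox6b2 was that of Ndufs3, a core subunit of the matrix arm of complex I. Its LFD PERC libraries had 84.6, 90.9, 117 and 129.9 CPM, against 144.4, 147.8, 157, 160.1 and 169 CPM in LFD vehicle libraries. The groups did not overlap, as for 2.32% of all genes, and the log2 fold change was -0.58 ± 0.15 (edgeR adjusted p = 0.0775). It passed with lane as a covariate and in DESeq2. In the other groups Ndufs3 also held separate low and high libraries, such as 78.5 and 86.9 CPM beside 135.4 to 158.6 CPM among the 8 HFD vehicle libraries of the 5-dose regimen. After 5 doses its log2 fold changes were 0.04, 0.02 and 0.22. Kbtbd4 overlaps Ndufs3 on the opposite strand, and the strand setting of the counting is not given in the sources used here.

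The spread between libraries of one group differed by gene. Within groups, Atp5a1 had an SD of 0.0622 on the log2 scale, Atp5c1 of 0.0681, Atp5b of 0.0716 and Ndufa9 of 0.0720. At the other end stood Uqcrq, a small subunit of complex III, at 1.02, followed by Uqcr11 at 0.740, Cox7c at 0.705 and Ndufs7 at 0.697. Over the 85 genes the median was 0.218, against 0.207 over all genes with a mean of at least 1 CPM. Lane went with these values. Uqcrq averaged 126.8 and 143.6 CPM in lanes 1 and 2, 27.2 to 36.2 CPM in lanes 3 to 6, and 60.4 and 67.7 CPM in lanes 7 and 8. Single lanes also held a wide range of Uqcrq, from 9.02 to 90.05 CPM in lane 3 and from 16.3 to 109 CPM in lane 8. Uqcr11 and Ndufs7 had their highest mean in lane 2 and their lowest in lane 5, as Uqcrq did. Of the 85 genes, 12 differed at least 2-fold between the highest and lowest lane mean, while 25 differed by less than 1.2-fold. The 20 most variable members had a median transcript length of 560.5 nt and GC content of 55.9%, and the 20 least variable had 1000 nt and 49.3%. The standard error of the Uqcrq log2 fold change after 5 doses was 0.39 to 0.41, where that of Ndufb9 was 0.047 to 0.048.

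**Figure D4:**
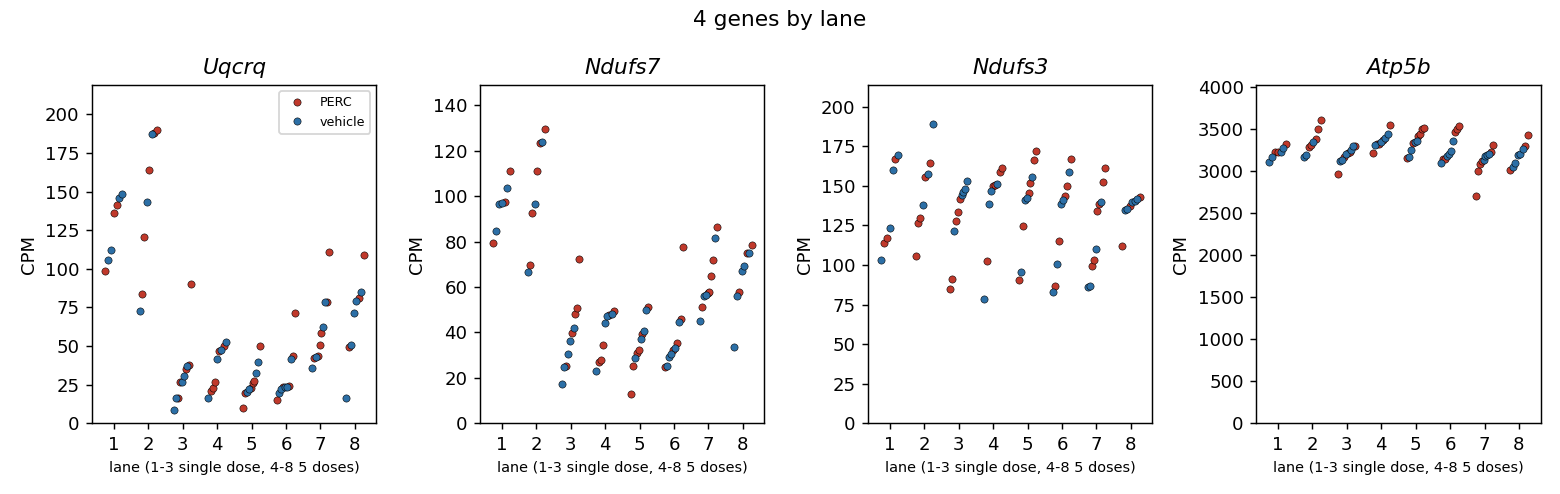
Level in CPM (y axis, from 0) of 4 genes in each library by sequencing lane (x axis; lanes 1 to 3 hold the single regimen and lanes 4 to 8 the 5-dose regimen), coloured by treatment. Uqcrq and Ndufs7 average high in lanes 1 and 2 and low in lanes 3 to 6. Uqcrq also spreads widely within lanes, Ndufs3 shows low and high libraries within lanes, and Atp5b stays within 2709 to 3618 CPM.

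The effect of diet was read in vehicle libraries. In the 5-dose regimen, HFD against LFD vehicle libraries gave 3 members called higher by edgeR (3.53%), where 6.64% of all tested genes were called and 3.86% were called higher. All belong to complex I. Ndufb3, an accessory subunit of the membrane arm, ran from 75.2 to 92.9 CPM (median 83.1) on HFD, against 65.5 to 83.3 CPM (median 69.98) on LFD. Ndufa10, also of the membrane arm, ran from 248 to 283 CPM (median 261) on HFD, against 225 to 256 CPM (median 237) on LFD. Ndufa9, at the site where ubiquinone enters, ran from 225 to 258 CPM (median 242) on HFD, against 217 to 239 CPM (median 227) on LFD. The ranges overlapped for each. Log2 differences were 0.24 ± 0.064, 0.21 ± 0.056 and 0.16 ± 0.049 (edgeR adjusted p = 0.0134, 0.0155 and 0.0440).

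Sdha had 1165 to 1285 CPM on HFD and 1083 to 1163 CPM on LFD in those vehicle libraries, which did not overlap, as for 3.25% of all genes. Its log2 difference of 0.17 missed the threshold in edgeR (adjusted p = 0.0732) and passed it in DESeq2. Adipocyte markers differed here too: 9 of 12 were called higher on HFD, Ucp1 by 5.28 on the log2 scale, and their summed level was 66.8 to 269 CPM (median 154) on HFD, against 57.95 to 89.8 CPM (median 65.6) on LFD, with no marker at 0. Intercalated cell markers were lower on HFD, with 4 of 6 called (Slc26a4, Atp6v1g3, Atp6v0d2 and Foxi1, at -0.48, -0.53, -0.42 and -0.40). Their summed level was 267 to 327 CPM (median 305) on HFD, against 356 to 593 CPM (median 403) on LFD, with no overlap and none at 0. Of 12 proximal tubule markers, Slc5a12, Miox and Slc5a2 were called lower on HFD and Slc22a30 higher. The part of these other cell types in the diet result was not tested. With the adipocyte markers as a covariate none of the 3 genes was called, and none was without LFD vehicle replicate 5. Scaled by library size alone, none was called either, with the median of all tested genes at -0.06. The median of the 85 genes was 0.02 and turned to -0.04 with that scaling. The share of all genes called in these settings is not given here.

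**Figure D5:**
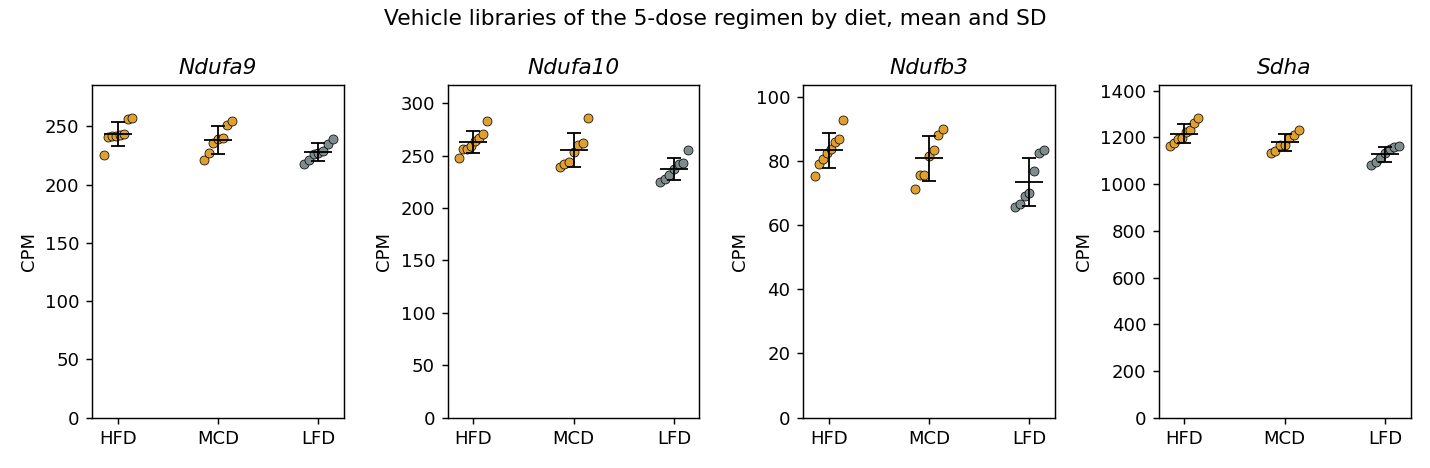
Level in CPM (y axis, from 0) of Ndufa9, Ndufa10, Ndufb3 and Sdha in the vehicle libraries of the 5-dose regimen by diet (x axis), with the mean and SD. HFD libraries average above LFD libraries for all 4 genes, and the Sdha ranges do not overlap.

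In the other diet comparisons edgeR called no member. MCD against LFD vehicle libraries of the 5-dose regimen had 5 members at an unadjusted p under 0.05 and DESeq2 called 0, where 3.48% of all genes were called. The smallest p values were those of Ndufb3 (log2 0.18, edgeR adjusted p = 0.158) and Ndufa10 (log2 0.14, edgeR adjusted p = 0.212). In the single regimen, HFD against LFD vehicle had 4 members at an unadjusted p under 0.05 and none in DESeq2, where 1.64% of all genes were called in edgeR. Ndufb4 had 0.38, Ndufa10 0.20 and Ndufb3 0.24 on the log2 scale (edgeR adjusted p = 0.162, 0.237 and 0.306). For MCD against LFD vehicle there was 1 such member and none in DESeq2, where 0.476% of all genes were called, and Ndufaf7, an assembly factor, had -0.22 (edgeR adjusted p = 0.640). Cox7b had -0.15 (edgeR adjusted p = 0.991) and Ndufb3 0.16 there. Ndufa10 averaged higher on HFD than on LFD in 3 of 3 lanes of the single regimen and in 5 of 5 of the other. On MCD it did so in 5 of 5 lanes of the 5-dose regimen and in 2 of 3 of the single regimen, where lane 3 averaged 237 CPM in both diets. The HFD and MCD comparisons share their LFD libraries.

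Whether diet or regimen altered the PERC effect was tested directly. In none of the 7 tests of a difference between PERC effects was a member called by edgeR or DESeq2, where edgeR called few of all genes: 0.0137% for HFD against LFD after 5 doses, 0.0132% on LFD and MCD and 0.132% on HFD for 5 doses against 1, and 0 in the other 3 tests. Without LFD PERC replicate 4 of the 5-dose regimen no member was called in the 3 of these tests that use it either. At an unadjusted p under 0.05 edgeR had 3 members for HFD against LFD and 1 for MCD against LFD after a single dose, and 0 for both after 5 doses. For 5 doses against 1 dose it had 2 members on LFD, 5 on HFD and 2 on MCD. The smallest p after 5 doses was that of Sdha for HFD against LFD (log2 -0.15, edgeR adjusted p = 0.916) and of Ndufb10 for MCD against LFD (log2 0.15, edgeR adjusted p = 0.784). Ndufs3 had the smallest p for MCD against LFD after a single dose (log2 0.72, edgeR adjusted p = 0.979) and for 5 doses against 1 on LFD (log2 0.61, edgeR adjusted p = 0.912), and Ndufaf3 that for 5 doses against 1 on MCD (log2 -0.63, edgeR adjusted p = 0.457). The median SE of such a difference was 0.122 and 0.124 after 5 doses and 0.219 and 0.234 after a single dose.

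Other genes of the same organelle were read from lists. Of 14 genes of mitochondrial stress and proteases, 3 were called higher on LFD and 6 on HFD and MCD after 5 doses, and none was lower. They included Atf5, a transcription factor of the mitochondrial stress response (log2 2.37, 2.67 and 2.42), Trib3, a pseudokinase induced under stress (3.602, 3.44 and 3.55), and Hspa9, a matrix chaperone (0.55, 0.38 and 0.38). Of 10 uncoupling and carrier genes, Ucp2 (0.65, 1.87 and 1.64) and Slc25a20, the carnitine carrier that brings in fatty acids (0.49, 0.83 and 0.90), were called higher in each diet. Of 18 genes of electron carriers and coenzyme Q synthesis, 1, 2 and 2 were lower, with Pdss1, which makes the coenzyme Q tail, at -0.32, -0.54 and -0.37. Etfb, a carrier of electrons from fatty acid oxidation, was called higher at 0.52 on HFD and 0.54 on MCD. Of 39 assembly factors, Ttc19 was higher on LFD (0.21), Acad9 was lower on HFD and MCD (-0.28 and -0.26), Coa6 was lower on HFD (-0.30) and Cox15 on MCD (-0.22). Of 14 genes of the tricarboxylic acid cycle, Suclg1 was higher on HFD (0.19) and MCD (0.20) and Suclg2 was lower on HFD (-0.38).

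Without LFD PERC replicate 4 the LFD values were 2.51 for Atf5, 3.76 for Trib3, 0.61 for Hspa9, 0.71 for Ucp2, 0.55 for Slc25a20 and -0.36 for Pdss1, each again called. The mitochondrial stress list then had 4 genes called higher on LFD, and Cox15, Tmem186 and Coq10b were also called lower.

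None of 20 regulators of mitochondrial biogenesis was called by edgeR after 5 doses in any diet, and 3, 2 and 2 had an unadjusted p under 0.05. Ppargc1a, a coactivator that drives expression of respiratory chain genes, had log2 values of 0.00, 0.00 and -0.02. Cytochrome c1 of complex III, Cyc1, had 0.08, 0.09 and 0.12, and the cytochrome c gene Cycs had 0.02, -0.34 and -0.09. As context for the exposure, the fatty acid hydroxylase gene Cyp4a14 had 5.00, 5.15 and 5.05 and the tubule injury marker Havcr1 had 4.78, 3.67 and 3.54. Without LFD PERC replicate 4 the LFD values of these genes were 5.16 and 4.94, and of the 20 regulators Ppara was called higher and Peo1 lower on LFD.

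Among the 25 PERC libraries of the 5-dose regimen, Cox6b2 varied with some of these genes. Relations were computed on log2(CPM + 0.5) centred within diet, for 11 genes taken after their values were seen, with 100000 permutations within diet, two-sided and adjusted over the 11. The p-values do not cover that choice of genes. How many of all tested genes vary as closely with Cox6b2 was not computed, so the relations are not shown to be particular to these genes. The relation with Ucp2 had Pearson's r = 0.837 and Spearman's rho = 0.828 (permutation p = 1e-05 for each, the smallest the permutations can give, adjusted p = 5.5e-05). It was 0.783 without the 2 libraries farthest from the median. Centred within lanes in place of diet, which leaves differences between diets in, it was 0.634. Slc25a20 had r = 0.811 and rho = 0.820 (permutation p = 1e-05, adjusted p = 5.5e-05), with 0.785 and 0.697 for the same checks. Cyp4a14 had r = 0.636 and rho = 0.750 (permutation p = 0.00039 and 4e-05, adjusted p = 0.00143 and 0.000147), with 0.620 and 0.543. Atf4, Atf5, Ddit3 and Trib3 had r of 0.594 to 0.640 (permutation adjusted p of 0.00508 to 0.00599) and 0.329 to 0.485 within lanes. For Havcr1 r was 0.264, for Hspa9 0.272, for Clpx -0.0808 and for Cox6b1 -0.278, with permutation adjusted p of 0.259 to 0.714. Within LFD, HFD and MCD, Ucp2 had r of 0.748, 0.838 and 0.950, Slc25a20 of 0.748, 0.844 and 0.861 and Cyp4a14 of 0.661, 0.821 and 0.815. The others were less even: Atf5 had 0.879, 0.280 and 0.512, Trib3 had 0.874, 0.269 and 0.363, and Havcr1 had 0.740, -0.162 and -0.222. Without LFD replicate 4 the pooled r was 0.826 for Ucp2, 0.801 for Slc25a20 and 0.747 for Cyp4a14 (permutation adjusted p = 5.5e-05, 5.5e-05 and 0.00011), and 0.569 to 0.628 for Atf4, Atf5, Ddit3 and Trib3. Replicate 4 was set apart by its own Cyp4a14 and Havcr1 levels. The rise from 0.636 to 0.747 for Cyp4a14 is therefore not a separate test of that relation. The 25 libraries share a treatment and lanes. On HFD the 2 lane 7 libraries had the highest Cox6b2 (11.91 and 15.37 CPM), Ucp2 (234.3 and 384.5 CPM), Slc25a20 and Cyp4a14. The highest Cox6b2 on MCD was also in lane 7 (17.14 CPM), and that on LFD was in lane 4 (15.4 CPM). No relation was centred on diet and lane together, so lane was not separated from the relations within diet.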

How the data were processed

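Messenger RNA was sequenced from pulverised kidney with a stranded library kit, per the labels' protocols. Each library's deposited file lists raw counts, whole numbers by gene symbol, which the authors had not normalized. The submitters' processing notes name TopHat2 2.0.13, HTSeq, DESeq2, Trimmomatic and bcl2fastq 2.17.1.14 with build GRCm38, in no stated order. The annotation and strand setting are not given in the sources used here. Reads aligned to several places, 6.91% to 30.9% of each library (median 21.7%), were left out of genes, so genes with near-identical copies are uncertain, also those below the CPM minimum. Of 77 libraries, 72 with at least 1000000 counts in genes were used, and 5 single-regimen libraries fell below. No pair of the 203 within groups matched within sampling noise (lowest chi-square per degree of freedom 6.38).

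Counts were scaled with TMM, filtered with filterByExpr and tested with the edgeR 4.0.16 quasi-likelihood F test (R 4.3.3), fitted over the 6 groups of a regimen, or over 12 groups between regimens. This left 14280, 14614 and 15139 genes. SE is the size of the log2 fold change over the square root of F. Alternatives were RLE factors, library size alone, no filter, lane or adipocyte markers as a covariate, DESeq2 1.42.0, shallow libraries kept, only the compared groups and each library left out. Fits and relations without LFD PERC replicate 4 that go beyond these were added after seeing the data. The fit was tested on simulated data for PERC against vehicle on LFD. Of genes changed 1.15-fold it called 0 of 97 in the single regimen and 8 of 100 in the other regimen. Of genes changed 3-fold it called 89 of 98 and 98 of 100, respectively. Of unchanged genes it called 3 of 13988 and 6 of 14343. Changes of 1.15-fold were mostly missed, so the absence of a call does not show that a gene was unchanged. Per comparison the text names the members called, up to 10 in each direction by p, or else the 3 with the smallest p, with isoform and core genes, and up to 4 called genes of each other list. Some results under this rule are not reported here. Genes outside this rule, such as Uqcrq, Uqcr11, Cox7c and Uqcrh, were chosen after their values were seen. Members and lists were chosen with earlier results of these data known. Exon lengths and positions came from the GENCODE annotation of GRCm38 and promoters from RefSeq.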

Additional observations from a re-analysis of the deposited data

Results flagged for a closer look

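Single libraries stood apart in 7 of 132 pairs of gene and group (5.30%) over 12 genes checked, where chance flags about 1 in 20 groups. Each had a gap to its nearest neighbour that was large against the range of its group. Cox6b2 was 6.01 CPM in replicate 2 of the HFD single-dose PERC group, with the next library at 3.63 CPM. Ndufb8 was 319.6 CPM in replicate 5 of the HFD 5-dose PERC group, with the next at 267 CPM. Ndufb10 was 174 CPM in replicate 7 of the MCD 5-dose PERC group, with the next at 136.1 CPM, and 93.9 CPM in replicate 8 of the MCD 5-dose vehicle group, with the next at 112 CPM. Uqcrq was 111 CPM in the same MCD PERC replicate 7, with the next at 58.4 CPM. Atp5h was 193 CPM in replicate 3 of the LFD 5-dose PERC group, with the next at 172 CPM, and 166 CPM in replicate 1 of the HFD single-dose vehicle group, with the next at 137.2 CPM.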

How the results depend on the processing

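Of the counts of members called under another setting, 117 stayed within 1.5 times the main count and 12 did not. The 117 include counts of 0 in both settings, as most comparisons had a main count of 0. All of the 12 except that for MCD after 1 dose came from the comparisons with a main count above 0. Of 2646 values of single genes, 2522 kept their direction and their side of the threshold. Another 28 fell short of it, 5 newly passed it, and 91 changed sign without being called in either. None reversed as a call. The cause of the differences below was not tested. The share of all genes called in the same setting is not given beside the counts below. They therefore do not show that members changed more than other genes. For PERC on LFD after 1 dose the count was 1 and became 2 with lane as a covariate or in DESeq2 and 0 with only the compared groups. For MCD after 1 dose DESeq2 gave 1 and edgeR 0. For LFD after 5 doses the count of 6 became 2 without the filter, 1 with adipocyte markers and 2 with only the compared groups, and for HFD after 5 doses the count of 5 became 8 with lane. For HFD against LFD vehicle libraries of the 5-dose regimen the count of 3 became 0 with library size alone or adipocyte markers, 5 with lane and 7 with only the compared groups. On leaving out 1 library at a time the counts ran from 0 (without LFD PERC replicate 4) to 2 (without LFD PERC replicate 3) for LFD after 1 dose. They ran from 2 to 7 for LFD, the 7 without PERC replicate 4 (which also gave 3 with adipocyte markers, where the count was 1 with it), 5 to 6 for HFD and 6 to 10 for MCD after 5 doses, the 10 without MCD PERC replicate 8, and from 0 (without LFD vehicle replicate 5) to 3 for HFD against LFD vehicle. All other counts were 0 throughout. Low counts limit Cox6b2 and Ndufa4l2, and variation between libraries, within as well as between lanes, limits Uqcrq, Uqcr11 and Cox7c. Leaving out libraries of the 5-dose regimen was not run for the comparison of regimens, other than LFD PERC replicate 4, and all shallow libraries belong to the single regimen. No paired analysis was possible because the labels carry no replicate numbers.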
